A study of Mus musculus with 4 samples.

Results

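The genes described here are those of the adrenomedullin peptides, *Adm* and *Adm2*, and of the subunits of their receptors, *Calcrl*, *Ramp1*, *Ramp2* and *Ramp3*. They were chosen by gene name on a mouse expression array, with every non-control probe of each gene taken, which gave 6 genes and 9 probes of 29676 gene names and 39429 probes in all. The arrays measured astrocyte-enriched cultures (AECs), primary glial cells from the cerebral cortices of newborn ICR mice (postnatal day 1 to 3, several pups pooled in a culture, either sex). Untreated AECs (n = 2) were compared with AECs kept for 15 h under oxygen–glucose deprivation (OGD, n = 2), that is, in medium without glucose at very low oxygen, a culture model of hypoxic–ischemic injury. All 4 cultures, controls included, had been treated with PLX3397, a blocker of the CSF1 receptor that removes microglia. According to the methods, wells came from separate cultures of different pups. The study's staining still showed oligodendrocyte cells in cultures treated with PLX3397.

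Adrenomedullin, the peptide cut from the *Adm* product, relaxes blood vessels and guards the endothelial barrier, and its gene is a known target of the hypoxia-inducible factor HIF-1. Adrenomedullin 2, also called intermedin and encoded by *Adm2*, is a related peptide of the calcitonin family whose gene is known to respond to endoplasmic reticulum stress. Both peptides act on the calcitonin receptor-like receptor (the *Calcrl* product), which reaches the cell surface only together with a receptor activity-modifying protein (RAMP). With RAMP1 the pair is the receptor for calcitonin gene-related peptide, with RAMP2 or RAMP3 it is an adrenomedullin receptor, and all of them raise cyclic AMP. The RAMPs also partner with other receptors, so a RAMP transcript alone does not mark an adrenomedullin receptor.

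The deposited value of a spot is its processed signal, an intensity in arbitrary units after background subtraction, and each array was scaled here by subtracting the 75th percentile of its log2 signals (normalized log2 signal). That percentile was 2135 and 2164 for untreated AECs against 887 and 776 under OGD, a log2 difference of −1.37, whereas the 9 spiked-in control probes used differed by −0.084 on average (range −0.76 to 0.28). Scaling therefore sets the direction of moderate changes, and values on both scales are given below. All 4 arrays lay on 1 slide and were scanned together, 64.5% to 73.7% of the non-control spots were well above background, and none was saturated. None of the 9 probes had an outlying spot. On each of the 4 arrays, all 12 astrocyte markers looked up (*Gfap*, *Aqp4*, *Slc1a3* and others) had a signal well above background. Of the markers of other cells, 9 of 10 for microglia, 8 of 8 for the oligodendrocyte lineage, 7 of 8 for meningeal fibroblasts and 6 of 6 for neurons were so on both untreated arrays, and 6, 7, 7 and 5 on both arrays after OGD.

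Of the 6 genes, 5 had a measurable signal, and they split into 3 patterns. Both ligand transcripts rose strongly after OGD under every scaling tried, the *Calcrl* probe did not stand out from background on any array, and the 3 RAMP transcripts moved by less than 2-fold under 75th-percentile scaling, with *Ramp2* falling, the direction of *Ramp3* depending on the scaling and that of *Ramp1* on the scaling and the probe. The plot of processed signals shows all 9 probes.

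**Figure D1:**
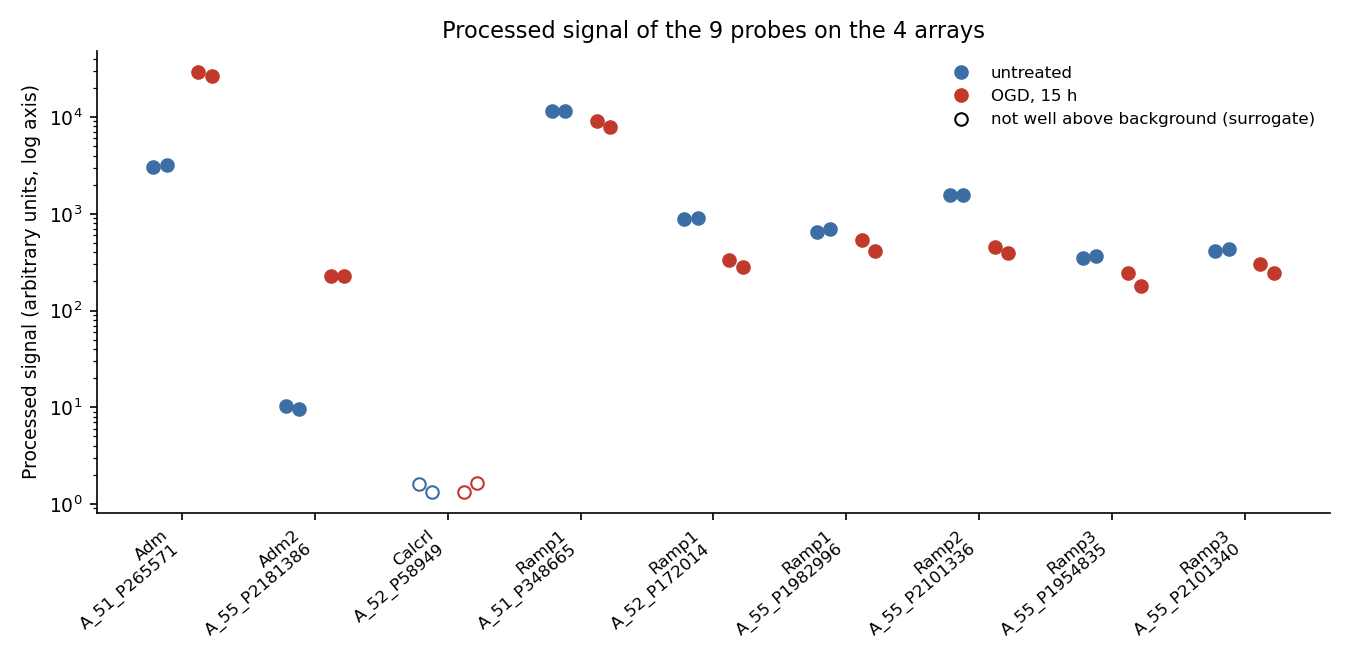
Processed signal (arbitrary units, log axis) of the 9 probes, 1 point per array, with untreated AECs in blue and AECs after 15 h of OGD in red; open points are spots not well above background, whose value the software replaced by a surrogate. *Adm* and *Adm2* lie higher after OGD, the 6 RAMP probes lie lower in unscaled signal, and *Calcrl* lies between 1.33 and 1.65 on all arrays. Heights of different probes cannot be compared.

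*Adm* was read by 1 probe of 60 bases (A_51_P265571, NM_009627), at chr7:117773088-117773147 of mm9 and starting at base 1147 of the transcript. The stretch below is the first 30 bases of this probe and shows what the arrays detected as *Adm*.
Adm probe: taagggcattttaaagtgattatattgtca
Untreated AECs gave processed signals of 3034 and 3188 and AECs under OGD 29356.5 and 26692, and the error that the scanner software gives for these spots was 303, 319, 2936 and 2669. Each array after OGD lay far above both untreated arrays, and the groups did not overlap. On the normalized log2 scale the mean went from 0.53 ± 0.036 untreated (SD, n = 2) to 5.08 ± 0.039 under OGD (SD, n = 2). The difference of 4.54 (SE 0.079) amounts to 23.3-fold (limma adjusted p = 0.000729). *Adm* took place 76 among the 28258 probes tested, ordered from the largest increase. Over all these probes 37.9% were called higher and 27.1% lower at an adjusted p of 0.05, and 0.81% were called higher and changed over 10-fold. *Adm* and *Adm2* were among genes that the study had picked on these same arrays, so the limit of 10-fold is not independent evidence for them.

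*Adm2* was also read by 1 probe (A_55_P2181386, NM_182928), at chr15:89155040-89155099 of mm9 and starting at base 1175 of the transcript. Its first 30 bases are shown for the same reason.
Adm2 probe: atcttaaatgcatctctacctatgaataag
Processed signals of *Adm2* were 10.3 and 9.51 in untreated AECs, with a software error of 2.01 and 1.79, and 226 on each array after OGD, with an error of 22.7 on each. The transcript thus went from the edge of detection to a clear signal, and the groups did not overlap. On the normalized log2 scale the mean went from −7.76 ± 0.095 untreated (SD, n = 2) to −1.87 ± 0.13 under OGD (SD, n = 2). The difference of 5.89 (SE 0.11) amounts to 59.2-fold (limma adjusted p = 0.000729), at place 24 of the probes tested. On the untreated arrays the size of this change leans on the background subtraction. The mean spot signal before subtraction was 55.8 and 51.7 there, against a median of 40.1 and 39.2 over the 153 negative control spots, which match no transcript. It exceeded 153 of these spots on the first untreated array and 152 on the second, and all of them after OGD, when it was 255 and 260. With a gentler background correction (normexp, offset 50) the change of *Adm2* was 3.29 on the log2 scale or 9.76-fold (adjusted p = 1.08e-06 in limma), while that of *Adm*, a bright probe, was 4.55.

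The order of the ligands' changes depends on that choice. Within an array, where no scaling enters, the log2 processed signal of *Adm2* minus that of *Adm* was −8.20 and −8.39 for untreated AECs against −7.02 and −6.88 under OGD, a shift of 1.34, so the signal of *Adm2* grew 2.54-fold more than that of *Adm*. With normexp the difference was −5.04 and −5.35 for untreated AECs against −6.52 and −6.40 under OGD, a shift of −1.27. In both forms the groups did not overlap (exact permutation test for each, two-sided p = 0.333, adjusted p = 0.333 over 3 pairs), and no smaller p can be reached with 2 arrays in each group. Which ligand transcript rose by the larger factor is therefore not settled by these arrays.

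The probes most like the ligands, by the distance between centred log2 signals over the 4 arrays among 24493 named probes, were those of *Ncoa6* (0.031), *Csrnp1* (0.071) and *Ero1l* (0.097) for *Adm*. For *Adm2* they were *Nr4a1* (0.079), *Wdfy1* (0.18) and *Nfatc2* (0.26). *Ero1l* encodes an oxidase that forms disulfide bonds in the endoplasmic reticulum, and *Nr4a1* encodes an orphan nuclear receptor. These likenesses describe single probes over 4 arrays. The neighbours of *Adm2* were found with the default background subtraction, on which the size of its change depends, and were not looked up with normexp.

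Since both ligand genes rose, the 250 bases before each transcription start are shown from a table of RefSeq promoters (GRCm38.p6), in which 5 of the 6 genes were matched (*Ramp2* was not). The core of the HIF-1 binding motif, ACGTG or GCGTG on either strand, is in capitals.
Adm promoter, chr7:110627407-110627656, plus strand: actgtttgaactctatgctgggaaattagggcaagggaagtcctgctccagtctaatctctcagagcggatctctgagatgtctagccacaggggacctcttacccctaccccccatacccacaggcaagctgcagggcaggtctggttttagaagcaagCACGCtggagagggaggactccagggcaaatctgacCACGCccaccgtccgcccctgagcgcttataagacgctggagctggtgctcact
Adm2 promoter, chr15:89322470-89322719, plus strand: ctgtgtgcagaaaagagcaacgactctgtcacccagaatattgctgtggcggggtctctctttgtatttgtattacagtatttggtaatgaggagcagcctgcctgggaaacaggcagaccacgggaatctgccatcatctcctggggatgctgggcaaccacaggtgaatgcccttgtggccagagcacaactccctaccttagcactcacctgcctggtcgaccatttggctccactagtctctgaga
The *Adm* promoter holds 2 such cores, both read on the opposite strand, with first bases at −90 and −54 from the start, and the *Adm2* promoter holds 0. The *Ramp3* window holds 2, and those of *Calcrl* and *Ramp1* hold 0. Of 32851 promoters of the same length 38.6% hold at least 1. The core of the ATF4 site, TGATGNAA, occurs in the window of *Calcrl* and not in those of *Adm*, *Adm2*, *Ramp1* and *Ramp3*, against 3.45% of all promoters, and the core of the cyclic AMP response element, TGACG, occurs in none of the 5, against 17.8% of all. A match is only a run of letters in this window.

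*Calcrl* encodes the 7-transmembrane subunit that both peptides need. Its only probe (A_52_P58949, NM_018782), at chr2:84173073-84173132 of mm9 and starting at base 2387 of the transcript, was not well above background on any of the 4 arrays, and its processed signal was a surrogate set by the software (1.59 and 1.35 untreated, 1.33 and 1.65 after OGD). The mean spot signal before subtraction was 42.7 and 39.8 for untreated AECs against 34.0 and 35.0 under OGD. It exceeded 135 and 98 of the 153 negative control spots for untreated AECs, and 61 and 101 of them under OGD, so it lay inside their range on every array. *Calcrl* was therefore not tested and has no fold change. This is a statement about 1 probe near the detection limit and does not show that the transcript was absent.

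**Figure D2:**
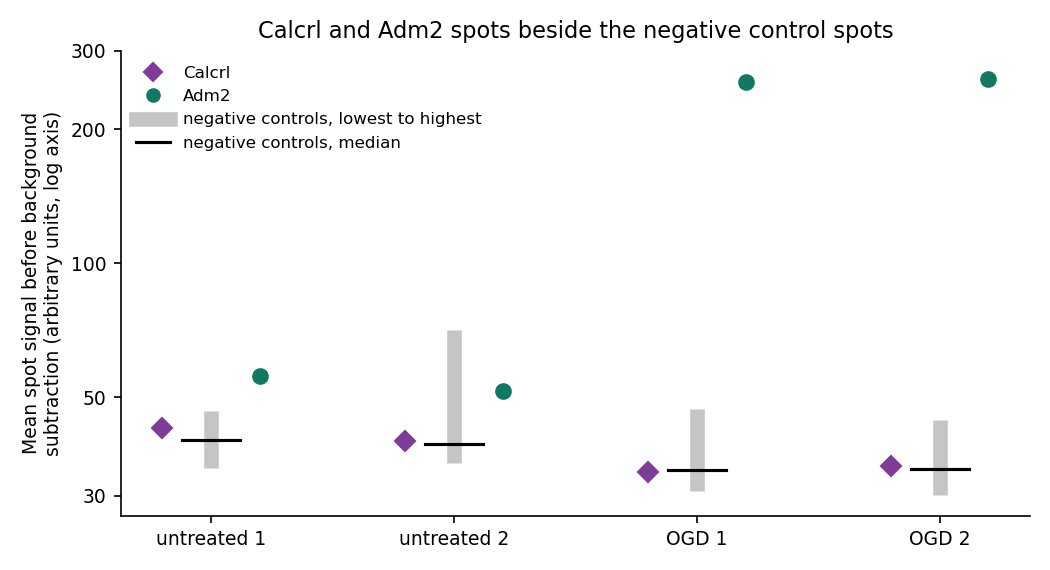
Mean spot signal before background subtraction (arbitrary units, log axis) of the *Calcrl* probe (diamonds) and the *Adm2* probe (circles) on each of the 4 arrays, beside the lowest-to-highest range (grey) and the median (black line) of 153 negative control spots. *Calcrl* lies within the range on all arrays. *Adm2* is at 55.8 and 51.7 untreated, above the range on the first untreated array but within it on the second, where 1 control spot reached 70.7, and at 255 and 260 after OGD, above the range on both.

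*Calcrl* is best known from endothelial cells, and their markers were looked up beside it. Of 12 endothelial markers 8 stood well above background on each of the 4 arrays, while *Tek*, *Tie1*, *Cldn5* and *Emcn* were not on any. The processed signal summed over the 12 was 6019 to 6338 in untreated AECs and 2463 to 3092 under OGD, and of the 8 tested 2 were called higher, 3 lower and 3 neither, against 37.1% higher and 27.8% lower over all genes tested. By the mean over each gene's probes 3 were higher and 2 lower. *Flt1* was not called by its brightest probe (0.60 on the log2 scale, limma adjusted p = 0.0546), although the study lists it among genes raised over 10-fold. With spike-in scaling 0 of the 8 were higher and 7 lower, against 4.45% higher and 82% lower over all probes. With normexp 5 were higher and 1 lower, against 17757 higher and 5365 lower of all 28258 probes. Of 8 pericyte and smooth muscle markers 5 stood well above background on every array, and *Abcc9* and *Kcnj8* on none. Of the 5, *Acta2* (0.91), *Tagln* (0.85) and *Rgs5* (0.38) were called higher and *Pdgfrb* (−2.42) and *Notch3* (−0.94) lower on the log2 scale, and with spike-in scaling all 5 were lower. The signal summed over the 8 markers, nearly all of it from *Acta2* and *Tagln*, was 284609 to 321088 in untreated AECs and 193701 to 233501 under OGD. Of the other markers tested, 6 of 12 for astrocytes were called higher and 1 lower (median log2 change 0.67), 0 of 7 for meningeal fibroblasts higher and 3 lower (median −0.57) and 3 of 9 for microglia higher and 2 lower (median 0.18). For the oligodendrocyte lineage 4 of 8 were higher and 3 lower (median 0.32), and for neurons 2 of 6 were higher and 2 lower (median −0.080). With spike-in scaling 0, 0, 1, 0 and 1 of these 5 lists' markers were higher and 9, 7, 6, 7 and 5 lower, in the same order. With normexp 8, 0, 7, 6 and 2 were higher and 1, 4, 0, 2 and 1 lower. Of those called lower in the main fit, *Trem2*, *Sox10* and *Rbfox3* were not well above background on every array. Their changes were 0.67, 0.83 and 0.90 with normexp. All sums of processed signal given here are unscaled. The 75th percentile of the arrays was lower under OGD too (887 and 776 against 2135 and 2164 in untreated AECs). The summed processed signal of all listed markers, outlying spots kept, was lower under OGD for astrocytes (189789 to 218943 against 343231 to 384907 in untreated AECs) and meningeal fibroblasts (11128 to 17178 against 40479 to 49425). It was also lower for the oligodendrocyte lineage (19844 to 23412 against 62206 to 63474) and neurons (23772 to 24496 against 56722 to 60235), and higher for microglia (5079 to 5999 against 4481 to 5026). The higher microglia sum rests on *Cd68* (1157 and 1213 in untreated AECs, 4301 and 3778 under OGD). *Itgam*, the other large term, was lower (1376 and 1015 under OGD against 3328 and 2726). The part of any of these cells in the values of the receptor genes was not tested, and in RNA of whole cultures fewer cells of a type and less RNA per cell cannot be told apart.

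*Ramp1*, the partner that turns the receptor toward calcitonin gene-related peptide, was read by 3 probes that disagreed. The brightest (A_51_P348665, NM_016894) starts at base 424 of the transcript, and its 60 bases span 26256 bases of the genome, at chr1:93093453-93119708 of mm9, so it crosses at least 1 splice junction. A second probe (A_52_P172014) is for the same transcript but starts 1779 bases further downstream, at chr1:93121428-93121487. The third (A_55_P1982996, NM_001168392) is for another transcript variant and lies at chr1:93103294-93103353. The first 30 bases of each are given because the probes share no run longer than 5 bases, so they report separate stretches of *Ramp1* RNA.
Ramp1 A_51_P348665: agacgctatggtgtgactggggaaagacca
Ramp1 A_52_P172014: tgggagtggatctccatccattcctcaaaa
Ramp1 A_55_P1982996: cttcttaggtgttccccctctttctatact

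The junction-spanning probe had processed signals of 11544.5 and 11503.5 in untreated AECs against 9075 and 7863 under OGD. The downstream probe had 886 and 914 in untreated AECs against 330 and 280 under OGD. The variant probe had 642 and 700 in untreated AECs against 532 and 407 under OGD. In unscaled signal all 3 were lower on both arrays after OGD, without overlap, but the downstream probe lost a larger part. The 75th percentile of the arrays was lower too, by a log2 difference of −1.37. The share of all probes that were lower without overlap was not counted. After 75th-percentile scaling the junction-spanning probe rose from 2.42 ± 0.017 untreated (SD, n = 2) to 3.35 ± 0.011 under OGD (SD, n = 2), by 0.93 on the log2 scale (SE 0.075, limma adjusted p = 0.0019), which is 1.90-fold. The variant probe rose by 0.85 (SE 0.11, limma adjusted p = 0.00508). The downstream probe had a log2 change of −0.19 (SE 0.076, limma adjusted p = 0.095), which did not pass the limit.

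The differences between these probes were taken within each array, so that subtracting a constant from an array does not alter them. The change of the junction-spanning probe exceeded that of the downstream probe by 1.12 on the log2 scale (SE 0.10, limma adjusted p = 0.00129 over 7734 pairs of probes of 1 gene), or 2.17-fold. The downstream probe fell behind the variant probe by −1.04 (SE 0.12, limma adjusted p = 0.00226). The junction-spanning and variant probes differed by 0.077 (SE 0.12, limma adjusted p = 0.643). With quantile normalization, which does alter them, the same 3 differences were 0.71, −1.03 and −0.32, with no test. Such differences were common on these arrays, where 48.3% of the pairs passed the same limit, so the disagreement is not particular to *Ramp1*. This test was chosen after the values were seen.

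**Figure D3:**
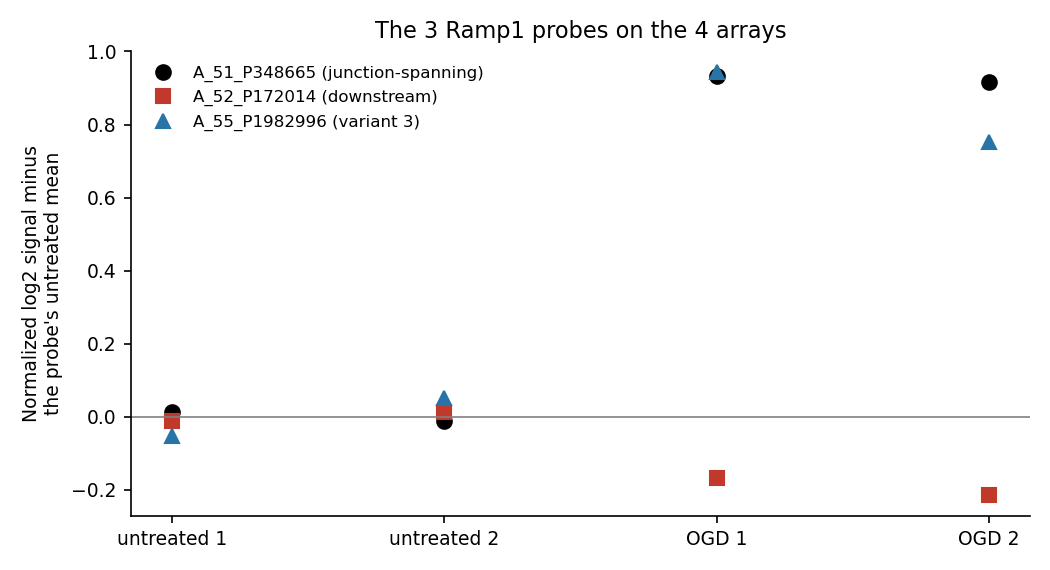
Normalized log2 signal of the 3 *Ramp1* probes on the 4 arrays, each minus the mean of its untreated arrays, 1 point per array. After OGD the junction-spanning (circles) and variant (triangles) probes lie above 0 and the downstream probe (squares) below it, with changes of 0.93, 0.85 and −0.19.

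*Ramp2*, the main partner for the adrenomedullin receptor of vessels, was read by 1 probe (A_55_P2101336, NM_019444), at chr11:101109501-101109560 of mm9. Untreated AECs gave processed signals of 1574 and 1558 and AECs under OGD 452 and 394, lower on both arrays. On the normalized log2 scale the mean went from −0.46 ± 0.024 untreated (SD, n = 2) to −0.97 ± 0.0039 under OGD (SD, n = 2). The difference of −0.52 (SE 0.075) amounts to a 1.43-fold lower signal (limma adjusted p = 0.00689). This fall lost the limit when either untreated array was left out, at −0.50 (adjusted p = 0.071 in limma without the first) and −0.53 (adjusted p = 0.0657 in limma without the second).

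*Ramp3*, whose product also forms an adrenomedullin receptor and steers its recycling after uptake, was read by 2 probes that share 52 bases and are not separate evidence. The brighter (A_55_P2101340, NM_019511), at chr11:6577416-6577475 of mm9, had processed signals of 410 and 430 in untreated AECs against 299.9 and 246 under OGD. The signal was lower on both arrays after OGD, yet by less than the 75th percentile was. Its normalized log2 mean went from −2.36 ± 0.033 untreated (SD, n = 2) to −1.61 ± 0.068 under OGD (SD, n = 2). The difference of 0.74 (SE 0.083) amounts to 1.67-fold higher (limma adjusted p = 0.00368). The other probe (A_55_P1954835) had a processed signal of 349.6 and 363 untreated and 243 and 181 after OGD, and changed by 0.61 (SE 0.11, limma adjusted p = 0.0129). For this dimmer probe the limit was lost without the first untreated array (limma adjusted p = 0.0847) or the second (limma adjusted p = 0.0797), and also with the methods' t-test on all 4 arrays (adjusted p = 0.0671).

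Within an array, *Ramp1* and *Ramp3* gained on *Ramp2*. The log2 processed signal of the brightest *Ramp1* probe minus that of *Ramp2* was 2.87 and 2.88 for untreated AECs against 4.33 and 4.32 under OGD, a shift of 1.44 or 2.72-fold. For *Ramp3* minus *Ramp2* it was −1.94 and −1.86 untreated and −0.59 and −0.68 after OGD, a shift of 1.26 or 2.40-fold. In both, each array after OGD lay above each untreated array (exact permutation test, two-sided p = 0.333, adjusted p = 0.333 over 3 pairs). These shifts show unequal change of the RAMP transcripts, not which of them was more abundant. The downstream *Ramp1* probe changed by −0.19 against −0.52 for *Ramp2*, so the gain of *Ramp1* was smaller on that probe.

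Scaling on the spiked-in control probes moved the median log2 change over all probes from 0.18 to −1.11, with 4.45% of the probes then called higher and 82% lower. *Adm* then rose by 3.25 on the log2 scale or 9.54-fold and *Adm2* by 4.60 or 24.2-fold (adjusted p = 5.7e-05 in limma for each). *Ramp2* fell by 1.81 (adjusted p = 0.000105 in limma), and *Ramp1* and *Ramp3* turned to −0.36 (adjusted p = 0.0234 in limma) and −0.55 (adjusted p = 0.00861 in limma). Relative to the median of all probes, which this choice does not touch, the changes were 4.37 for *Adm*, 5.71 for *Adm2*, 0.75 for *Ramp1*, −0.70 for *Ramp2* and 0.57 for *Ramp3*. With normexp that median was 0.55, and relative to it *Ramp1* was at 0.36, *Ramp2* at −0.96 and *Ramp3* at 0.14. By these brightest probes *Ramp1* and *Ramp3* lost less signal than the median probe and *Ramp2* lost more. The downstream *Ramp1* probe differs, at −0.37 relative to the median of all probes and at −0.67 with normexp, so by it *Ramp1* lost more. It was below 0 in every setting tried, from −0.12 to −1.48, whereas the sign of the other 2 *Ramp1* probes and of both *Ramp3* probes turned with spike-in scaling.

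**Figure D4:**
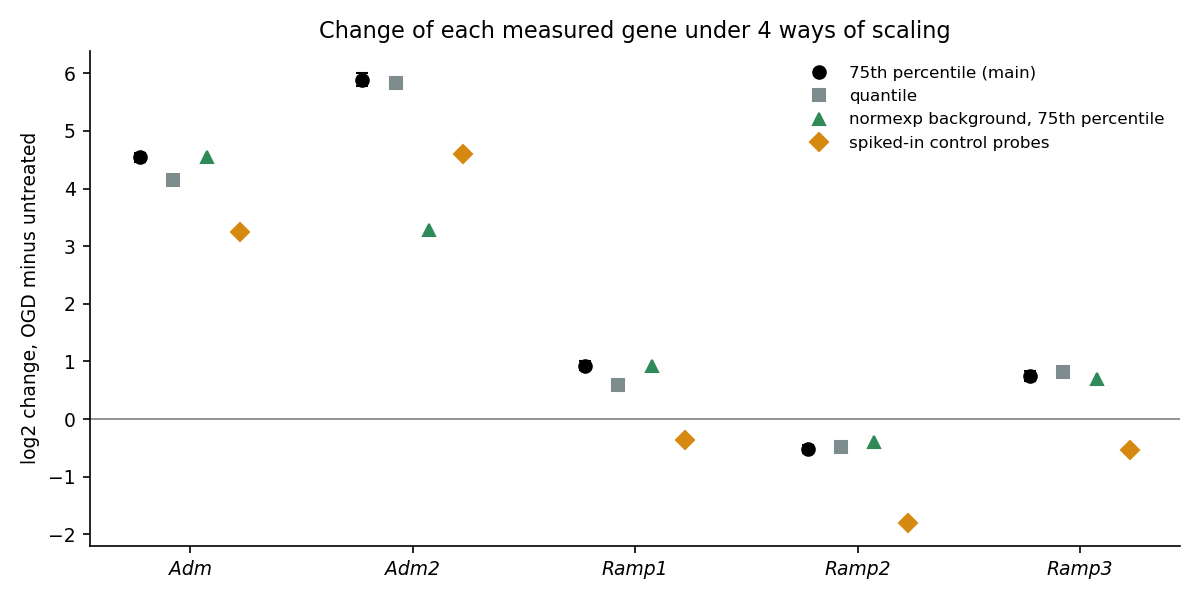
Log2 change after OGD (OGD minus untreated, brightest probe of each gene, 2 arrays a group) with 4 ways of scaling; the bars on the main values are standard errors. *Adm* and *Adm2* stay at 3.25 or above and *Ramp2* below 0 in all 4, whereas *Ramp1* and *Ramp3* are above 0 in 3 of them and at −0.36 and −0.55 with spiked-in control probes.

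The distance between centred log2 signals was also taken for the brightest probe of each RAMP. How many other probes lay as close was not counted. The nearest probes were those of *Tspan6*, *Prnp* and *Cystm1* for *Ramp1*, of *Dffa*, *Rasa3* and *Ppp2r5c* for *Ramp2*, and of *Ets2*, *Gltp* and *S100g* for *Ramp3*, at distances between 0.0020 and 0.022.

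The other genes of the pathway are given as lists, with 1 value a gene from its brightest probe and changes after 75th-percentile scaling unless another scaling is named. Over all 21064 genes tested (37.1% called higher, 27.8% lower) the median log2 change was 0.16. Of all probes, 4.45% were called higher and 82% lower under spike-in scaling. Of 7 other genes of the calcitonin family, 5 were tested, with 2 higher, 1 lower and a median of −0.13. *Calcb*, which encodes the beta form of calcitonin gene-related peptide, rose by 1.40 on the log2 scale (adjusted p = 0.00162 in limma), although it had processed signals of 10.4 and 11.6 in untreated AECs against 12.6 and 9.94 under OGD, all near the lower limit. *Iapp*, which encodes amylin, rose by 0.84 (adjusted p = 0.0115 in limma). Under spike-in scaling these changes were 0.11 and −0.45, and 0 of the 5 genes were higher and 3 lower. *Crcp*, a cofactor that couples the calcitonin gene-related peptide receptor to its G protein and also a subunit of RNA polymerase III, fell by 0.79 (adjusted p = 0.00263 in limma). *Calca* (−0.13, adjusted p = 0.414 in limma) and the scavenger receptor *Ackr3* (−0.16, adjusted p = 0.362 in limma) did not pass the limit. The calcitonin receptor *Calcr*, another receptor that RAMPs join, and *Gpr182* were not well above background on any array.

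Of 13 genes for processing, amidation, binding and breakdown of peptides, 8 were called higher and 2 lower, with a median of 0.75. *Pam*, the enzyme that amidates the end of adrenomedullin and so makes it active, rose by 1.01 after 75th-percentile scaling (adjusted p = 0.0021 in limma), while its unscaled processed signal was lower under OGD, at 2124 and 1889 against 2448 and 2699 in untreated AECs. *Mme*, which encodes neprilysin, a protease that breaks adrenomedullin down, rose by 1.39 (adjusted p = 0.00106 in limma), and the proprotein convertase *Pcsk6* fell by 0.75 (adjusted p = 0.00491 in limma). Under spike-in scaling 0 were higher and 8 lower, with *Pam* at −0.28 and *Mme* at 0.099.

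Of 23 genes of cyclic AMP signalling, 9 were called higher and 8 lower, with a median of −0.12. The largest increase was that of the phosphodiesterase *Pde4d*, which degrades cyclic AMP, at 2.80 (adjusted p = 0.00144 in limma), and the largest decrease that of the adenylyl cyclase *Adcy8*, which makes it, at −1.75 (adjusted p = 0.0013 in limma). With normexp *Adcy8* was at −0.94, behind *Rapgef3* (−1.41), *Adcy1* (−1.24) and *Adcy9* (−0.97), so the order of the decreases depends on the background correction. *Pde4d* was the 1 gene of this list still higher under spike-in scaling, at 1.51, where 18 were lower. Of 9 genes of receptor trafficking and desensitization 2 were higher and 4 lower, with a median of −0.045, between the receptor kinase *Grk5* at 1.02 (adjusted p = 0.00177 in limma) and the arrestin *Arrb1* at −1.02 (adjusted p = 0.0021 in limma). Under spike-in scaling 0 were higher and 8 lower, with *Grk5* at −0.27.

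Lists of known targets of HIF-1 and of ATF4 with the unfolded protein response were set beside the ligands. Of 22 HIF-1 targets tested, 21 were called higher and 1 lower, with a median of 1.72. The increase of *Adm* was exceeded by that of *Ankrd37*, at 5.92 (adjusted p = 0.000729 in limma), and by no other, also with normexp and with spike-in scaling. *Pfkfb4*, a regulator of glycolysis, was lower, at −1.44 (adjusted p = 0.00708 in limma). Of 17 ATF4 and unfolded protein response targets, 16 were called higher and 1 lower, with a median of 1.91, from *Slc7a11*, the cystine transporter, at −1.36 (adjusted p = 0.00209 in limma) to *Chac1*, which degrades glutathione, at 4.51 (adjusted p = 0.000729 in limma). The change of *Adm2* exceeded all 17, but with normexp 3 of them exceeded it. Under spike-in scaling 12 of the HIF-1 targets were higher and 5 lower, and 9 of the ATF4 targets were higher and 4 lower. Of all probes, 4.45% were higher and 82% lower under that scaling. With normexp 0 of the ATF4 targets were called lower, and *Slc7a11* was at −0.029.

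**Figure D5:**
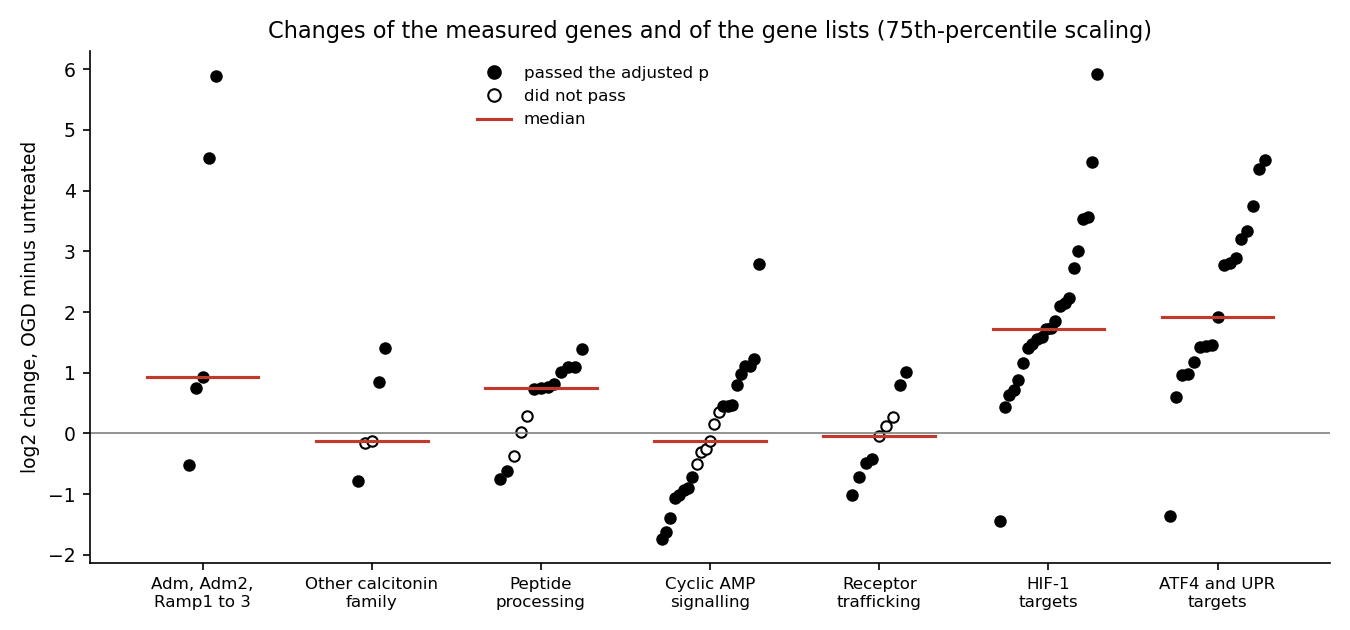
Log2 change after OGD (75th-percentile scaling) of *Adm*, *Adm2* and the 3 RAMP genes and of the genes of 6 lists, 1 point per gene from its brightest probe; filled points were called in limma (adjusted p limit 0.05), and red lines are medians. The pathway lists hold changes in both directions, with a median of 0.75 for peptide processing and from −0.13 to −0.045 for the others. The HIF-1 and ATF4 lists have medians of 1.72 and 1.91.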

How the data were processed

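Per the labels and methods, total RNA of 4 AEC cultures was amplified, labeled with Cy3 and hybridized to a single-color array (Mouse Gene Expression 4 × 44 K v2), and the scans were processed with Agilent Feature Extraction (11.5.1.1 per the file headers). The deposited values give 1 intensity for each spot, background-subtracted but not normalized between arrays, with marks for background, saturation and outliers. The authors' series table holds the same intensity (largest difference 0). Probe positions are those of mm9 in the file headers, and exon or UTR annotation was not used here.

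Control and outlying spots were left out, log2 processed signals were averaged per probe, and each array's 75th percentile was subtracted. Of 39429 probes, 28258 were well above background on both arrays of a group and were fitted with lmFit and eBayes of limma 3.58.1 (R 4.3.3), with Benjamini–Hochberg adjustment. The script was tested on simulated data. A gene's single value is that of its brightest probe. Genes named from a list are the largest called increase and decrease, the calcitonin family, *Pam* and *Mme*. *Rapgef3*, *Adcy1*, *Adcy9* and the cell type markers given with values were chosen after their values were seen. The members and lists were chosen with earlier results of these data known. Alternatives were other background corrections, scalings, filters and tests, and each array left out. With 2 arrays a group, precision is limited by their number.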

Additional observations from a re-analysis of the deposited data

How the results depend on the processing

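The increases of *Adm* and *Adm2* kept their direction and their side of the limit in all 18 alternatives, between 3.25 and 4.57 and between 3.29 and 5.98 on the log2 scale. Spike-in scaling turned *Ramp1* to −0.36 and *Ramp3* to −0.55, the *Ramp1* variant probe to −0.44 and the second *Ramp3* probe to −0.68. Under 75th-percentile scaling no change of a RAMP reached a 2-fold limit (*Ramp1* 0.93, *Ramp2* −0.52, *Ramp3* 0.74). With 1 array left out, where the single array left is taken to spread like the other group, *Ramp2* lay between −0.53 and −0.50. The downstream *Ramp1* probe passed the limit under spike-in scaling (−1.48), the methods' t-test and the 75th percentile of probes above background. The within-array shifts with normexp were −1.27 for *Adm2* minus *Adm*, 1.32 for *Ramp1* minus *Ramp2* and 1.105 for *Ramp3* minus *Ramp2*; the cause was not tested. *Calcrl* has no value under any setting that keeps the filter.

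Over all probes 18355 changed (10709 higher, 7646 lower), between 10742 and 19165 with 1 array left out and 8109 with the 2-fold limit. Normexp gave 17757 higher and 5365 lower, and spike-in scaling 1258 and 23168. The labels do not say whether the replicate numbers pair the cultures. The correlation of deviations over probes was −0.057, which with 2 arrays a group cannot decide it. The replicate block gave 17206 probes with no call of these genes lost.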
